A study of Mus musculus with 10 samples.

Results

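The protocadherins are the largest family of cadherin adhesion molecules, and the hippocampal RNA of Visudyne and vehicle mice was searched for every protein-coding gene whose symbol begins with Pcdh. The table held 33 such rows among 27343, made up of 1 alpha row, 21 beta rows, 1 gamma row and 10 genes outside the clusters. Of the 33, 32 passed the filter on low counts, and Pcdhb1 did not. The mice were wild-type male C57BL/6J animals, 2 months old, in both groups. Mice of the Visudyne group had verteporfin, a light-activated photosensitizer, injected into the cisterna magna, followed by red light through the intact skull, and mice of the vehicle group had vehicle in place of the drug and the same light. The procedure is meant to ablate meningeal lymphatic vessels and was done again after 2 weeks, ahead of the Morris water maze and the dissection of the whole hippocampus. There were 5 Visudyne libraries, numbered 1 to 5, and 5 vehicle libraries, numbered 6 to 10. The comparison asks how hippocampal transcripts differ after a procedure meant to remove lymphatic function. The protocol gives the light step and the maze for all mice, although the treatment label names the maze for the Visudyne mice alone. No label ties a library to a mouse by an identifier, so p-values measure the spread between these libraries, which may be technical.

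The clustered protocadherins lie in 3 neighbouring gene arrays on mouse chromosome 18. Each neuron draws its own subset of them, and the proteins on the surface bind their own kind between cells, which is known to let a neuron tell its own branches from those of others. In the alpha and gamma arrays every member joins its own first exon to constant exons shared by the whole array, whereas beta genes have no constant exons. The choice of promoter is known to depend on CTCF and cohesin and on DNA methylation. The non-clustered genes, among them the delta-1 and delta-2 groups, are expressed by region and cell type, and take part in axon growth, sorting of neurons and synapse formation. Their cytoplasmic tails bind signalling proteins, and several of them recruit the WAVE complex, a regulator of actin.

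GENCODE M21 on GRCm38 (mm10) lists 69 protein-coding Pcdh genes. The other 36, among them 13 alpha and 20 gamma genes, are not analysed here. The highest Ensembl number in the table is 99329, and 33 of the 36 have higher numbers, the alpha and gamma genes starting at 102206. The alpha row is ENSMUSG00000007440, which M21 calls Pcdha11, a symbol that 2 identifiers carry there. The gamma row is ENSMUSG00000023036, which M21 calls Pcdhgc4. Whether these rows also hold reads of the other alpha and gamma transcripts was not tested, and because of the shared constant exons they are described as the alpha row and the gamma row.

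The sequence at the start was examined for 8 of the 33 members, all of them non-clustered genes. It came from RefSeq on GRCm38.p6, as the 250 bases before and 50 bases after the annotated start. Pcdh20 was the most abundant non-clustered gene with a row and was not called. Its window is shown beside those of the 4 non-clustered genes that were called higher, since the results turn on these genes. They read 5′ to 3′ on the strand of the gene, and capitals mark the GC box GGGCGG on either strand.
Pcdh19, chrX:133688944-133689243, minus strand: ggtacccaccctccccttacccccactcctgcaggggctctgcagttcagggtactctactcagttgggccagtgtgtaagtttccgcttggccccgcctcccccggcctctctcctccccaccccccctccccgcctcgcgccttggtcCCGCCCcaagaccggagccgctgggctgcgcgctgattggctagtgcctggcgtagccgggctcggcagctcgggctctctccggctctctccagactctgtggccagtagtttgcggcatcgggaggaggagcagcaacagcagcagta
Pcdh10, chr3:45378148-45378447, plus strand: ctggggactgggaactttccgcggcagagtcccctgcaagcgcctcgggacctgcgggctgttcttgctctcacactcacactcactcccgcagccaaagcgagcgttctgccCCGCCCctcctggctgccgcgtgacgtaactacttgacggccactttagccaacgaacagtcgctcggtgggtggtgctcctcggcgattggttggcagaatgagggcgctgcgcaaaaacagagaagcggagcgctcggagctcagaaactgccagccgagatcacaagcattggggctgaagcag
Pcdh17, chr14:84443313-84443612, plus strand: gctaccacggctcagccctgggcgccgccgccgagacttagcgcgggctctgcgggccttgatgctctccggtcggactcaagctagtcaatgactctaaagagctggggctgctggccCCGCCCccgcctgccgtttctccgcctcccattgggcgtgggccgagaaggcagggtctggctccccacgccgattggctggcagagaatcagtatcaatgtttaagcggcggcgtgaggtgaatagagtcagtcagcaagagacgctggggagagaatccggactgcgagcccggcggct
Pcdh7, chr5:57717831-57718130, plus strand: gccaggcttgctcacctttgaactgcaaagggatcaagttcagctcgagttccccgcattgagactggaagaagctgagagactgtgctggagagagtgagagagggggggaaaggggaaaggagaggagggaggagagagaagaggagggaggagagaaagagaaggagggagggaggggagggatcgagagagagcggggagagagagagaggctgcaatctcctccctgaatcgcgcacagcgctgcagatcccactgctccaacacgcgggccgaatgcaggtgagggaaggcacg
Pcdh20, chr14:88471347-88471646, minus strand: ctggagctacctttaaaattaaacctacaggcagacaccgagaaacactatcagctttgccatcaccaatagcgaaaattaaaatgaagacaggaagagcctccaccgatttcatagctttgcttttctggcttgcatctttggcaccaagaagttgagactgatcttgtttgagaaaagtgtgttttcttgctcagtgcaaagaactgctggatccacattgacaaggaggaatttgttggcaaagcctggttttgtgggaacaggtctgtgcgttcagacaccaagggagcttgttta
The windows of Pcdh19, Pcdh10 and Pcdh17 each held 1 GC box, and those of Pcdh7 and Pcdh20 held 0, where 35.7% of all 32851 windows of this length held at least 1. The search also covered the CRE TGACGTCA, found in 1.79% of all windows, the E-box CACGTG, in 7.15%, and the TATA box TATAAA, in 13.6%, none of which was present in these 5 windows on either strand. The GC content of the window was 67.7% for Pcdh19, 65% for Pcdh17, 62.3% for Pcdh10, 59.3% for Pcdh7 and 43.7% for Pcdh20, against a median of 52.7% over all windows. CpG dinucleotides numbered 26, 24 and 18 in the windows of Pcdh17, Pcdh10 and Pcdh19. They numbered 11 in that of Pcdh7 and 4 in that of Pcdh20, against a median of 7. The starts of the called gamma row, the called beta genes and Pcdh1 were not examined. The other windows examined, not shown, belong to genes that were not called. That of Pcdh18 held 1 GC box, 63% GC and 23 CpG, much as those of Pcdh19, Pcdh10 and Pcdh17 did. Those of Pcdh8 and Pcdh15 held 0 GC boxes and 1 TATA box each, with 54.3% and 50.7% GC and 14 and 8 CpG.

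Of 10 non-clustered genes 4 were called higher and 1 lower after Visudyne, and of 22 tested clustered rows 3 were called higher and 1 lower. Pcdh19, Pcdh10, Pcdh17 and Pcdh7 stood at 1.29 to 1.49 times their vehicle level, 3 beta genes at 1.24 to 1.33 times theirs, and the gamma row and Pcdh1 at 0.793 and 0.637 of theirs. Of 32 tested members 7 were called higher, or 21.9%, where 8.98% of the 15938 tested genes were called higher. Lower calls numbered 2, or 6.25%, where 11.5% of all tested genes were called lower. Calls use edgeR's quasi-likelihood test and an adjusted p (Benjamini-Hochberg, over all tested genes) under 0.05. Levels are in CPM (counts divided by each library's TMM-adjusted size and brought to one total), with the SD over the 5 libraries of a group, and every fold is Visudyne over vehicle. Gene positions are on GRCm38. The median log2 fold change of the 32 members was 0.20, beside 0.010 over all tested genes. The groups did not overlap in 3 members that were higher in Visudyne, or 9.38%, beside 5.25% of all tested genes, and in 1 that was lower, or 3.12%, beside 7.22%.

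Total counts ran from 34548474 to 36956138 in the Visudyne libraries and from 24752362 to 41073906 in the vehicle libraries. The libraries also differed in how strongly a gene's count depended on its GC content. For each gene the deviation of log2 CPM from its mean over the 10 libraries was taken, and its slope on GC content was fitted per library. The slopes are thus relative to the average of the libraries. They lay between -0.051 and 0.0011 per percentage point in Visudyne and between -0.0017 and 0.039 in vehicle. The groups overlapped only through Visudyne 5 and vehicle 10. Over all tested genes the median log2 fold change was 0.28 below 42% GC and -0.54 from 60% GC upwards. Values with each library's GC trend removed therefore stand beside the members named below. Once it was removed, 1 of the 32 members, Pcdh19, was called higher, or 3.12%, beside 1.93% of all tested genes, and 0 were called lower, beside 2.17%. Using the GC slope as covariate, edgeR called 0 members and 0 genes, while 1050 genes had an unadjusted p under 0.05. Markers of neurons were present in every library, at a summed 4948 to 6188 CPM in Visudyne and 4284 to 5028 CPM in vehicle over 6 genes. Of 5 tested oligodendrocyte markers 3 were called lower (Mbp, Cnp and Mog), at a median log2 fold change of -0.34 and of -0.27 with the GC trend removed. The 6 genes of that list summed to 2075 to 2464 CPM in Visudyne and 2168 to 2900 CPM in vehicle, and their part in the protocadherin values was not tested. In whole tissue, fewer cells of a type and less RNA per cell cannot be told apart.

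Pcdh19 (ENSMUSG00000051323, chromosome X, 133582860 to 133688987) encodes a delta-2 protocadherin whose human gene is mutated in an X-linked epilepsy that mainly affects females. It stood at 178, 153, 168, 153 and 124 CPM in Visudyne 1 to 5, against 97.5, 105, 107, 98.1 and 114 CPM in vehicle 6 to 10. Every Visudyne library lay above every vehicle library, Visudyne 5 least. The means were 155 ± 20.6 CPM in Visudyne and 104 ± 6.71 CPM in vehicle, for a log2 fold change of 0.57 (SE 0.089, edgeR adjusted p = 0.017), the smallest p among the members. It remained called with the GC trend removed, at 0.55 (adjusted p = 0.018 by edgeR). Under the GC slope covariate it was 0.27 (unadjusted p = 0.0064 by edgeR, not called after adjustment). The call was lost without Visudyne 3 (adjusted p = 0.058 by edgeR) and without vehicle 6 (0.064), and it was kept when any other single library was left out.

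Pcdh10 (ENSMUSG00000049100, chromosome 3, 45378398 to 45435623), also of the delta-2 group, binds the WAVE complex through Nckap1 and takes part in axon growth and in synapse elimination. It was at 170.2, 123, 167, 139.9 and 129 CPM in Visudyne 1 to 5, against 103, 124, 109.6, 104 and 108 CPM in vehicle 6 to 10. The groups overlapped only because Visudyne 2 lay just below vehicle 7. Its log2 fold change was 0.41 (SE 0.096, edgeR adjusted p = 0.026, means 146 ± 21.6 CPM in Visudyne against 109.8 ± 8.18 CPM in vehicle), and 0.24 with the GC trend removed, where it was not called (adjusted p = 0.075). Pcdh17 (ENSMUSG00000035566, chromosome 14, 84443563 to 84539002) is a delta-2 member known from presynaptic assembly in corticobasal ganglia circuits. It was at 153, 135, 143, 131 and 103 CPM in Visudyne 1 to 5, against 98.6, 108, 108, 97.1 and 103 CPM in vehicle 6 to 10. Here Visudyne 5 lay within the vehicle range and the other 4 Visudyne libraries above it. The log2 fold change was 0.36 (SE 0.091, edgeR adjusted p = 0.028, means 133 ± 18.7 CPM in Visudyne against 103 ± 5.23 CPM in vehicle), and 0.26 without the GC trend (adjusted p = 0.062, not called).

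Pcdh18 and Pcdh8, the other delta-2 genes with a row, were not called. Pcdh18 was at 4.74, 3.63, 6.23, 4.02 and 5.19 CPM in Visudyne 1 to 5, against 4.64, 4.39, 3.01, 3.69 and 4.1 CPM in vehicle 6 to 10, a log2 fold change of 0.27 (SE 0.16, edgeR adjusted p = 0.24), or 0.16 with the GC trend removed. Its highest values were in Visudyne 3 and 5. These are also the libraries with the highest sum of the list of choroid plexus and ependyma markers. Its 6 genes, none at 0 in any library, summed to 409 CPM in Visudyne 3 and 296 CPM in Visudyne 5. The sum was 22.8 to 29.2 CPM in the other Visudyne libraries and 22.7 to 33 CPM in vehicle. Ttr, at a mean of 108 CPM in Visudyne against 5.05 CPM in vehicle, was the only one called. Foxj1 alone had a lower mean in Visudyne, 0.277 CPM against 0.39 CPM in vehicle. Markers of meningeal fibroblasts, 5 genes with none at 0, summed to 84.9 and 83.5 CPM in Visudyne 3 and 5. Their sum was 53.1 to 62.7 CPM in the other Visudyne libraries and 35.9 to 57.6 CPM in vehicle. Dcn was the most abundant, at a mean of 58.8 CPM in Visudyne against 33.3 CPM in vehicle, and the only one called higher. Slc6a13 was called lower, at 0.776 CPM in Visudyne against 2.16 CPM in vehicle. Col1a1 and Col1a2 had lower means in Visudyne and Lum a higher one, and none of these was called. The part of both marker lists in the Pcdh18 values was not tested. Pcdh8 encodes arcadlin, a synaptic protein induced by neuronal activity. All its 10 counts were whole multiples of 13, from 0 to 39, and of 14482 rows with a highest count above 30 only 16 had counts that were all multiples of a whole number of at least 5. Its level was 0.408, 0.828, 0, 1.15 and 0.339 CPM in Visudyne 1 to 5 and 0.598, 0.741, 0.589, 0.661 and 0 CPM in vehicle 6 to 10. With counts in such steps its log2 fold change of 0.031 (0.52 with the GC trend removed) had an SE of 0.70, and a difference was not detectable at this depth.

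Of the 3 delta-1 genes with a row 1 was called higher and 1 lower. Pcdh7 (ENSMUSG00000029108, chromosome 5, 57717967 to 58133230), an adhesion molecule whose cytoplasmic tail binds protein phosphatase 1, was at 5.12, 3.63, 3.7, 4.14 and 3.29 CPM in Visudyne 1 to 5, against 2.23, 3.25, 2.2, 3.08 and 2.76 CPM in vehicle 6 to 10. The lowest Visudyne library lay just above the highest vehicle library. It had a log2 fold change of 0.56 (SE 0.16, edgeR adjusted p = 0.035, means 3.97 ± 0.707 CPM in Visudyne against 2.7 ± 0.481 CPM in vehicle), and of 0.46 with the GC trend removed (adjusted p = 0.080, not called). Pcdh1 (ENSMUSG00000051375, chromosome 18, 38185914 to 38212053), an adhesion molecule studied in airway epithelium as well as in the nervous system, was at 11.5, 22, 18, 22.7 and 24.8 CPM in Visudyne 1 to 5, against 36.9, 29.3, 23.6, 40.6 and 24.9 CPM in vehicle 6 to 10. Visudyne 1 was lowest and vehicle 9 highest, and Visudyne 5 lay between vehicle 8 and vehicle 10. Its log2 fold change was -0.65 (SE 0.20, edgeR adjusted p = 0.042, means 19.8 ± 5.25 CPM in Visudyne against 31.1 ± 7.44 CPM in vehicle). At 60.7% GC Pcdh1 was the most GC-rich member. Its value without the trend was -0.14 (adjusted p = 0.28, not called), and under the GC slope covariate it turned to 0.15. Pcdh11x, the X-linked delta-1 gene, has the lowest GC content of the members, 36.3%. It was at 27.5, 22.4, 25.7, 29 and 25.1 CPM in Visudyne 1 to 5, against 15.6, 25.6, 25.5, 17.4 and 13.9 CPM in vehicle 6 to 10. Vehicle 7 and 8 lay among the Visudyne libraries and the other 3 vehicle libraries below them. Its log2 fold change of 0.40 (SE 0.16, edgeR adjusted p = 0.088) was not called, and it was 0.075 with the GC trend removed.

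Pcdh20 (ENSMUSG00000050505, chromosome 14, 88464743 to 88471396), a protocadherin of less well known function, was the most abundant non-clustered gene with a row and was not called. It was at 349.5, 309, 285, 290.2 and 239 CPM in Visudyne 1 to 5, against 272, 243, 278, 201 and 289 CPM in vehicle 6 to 10. The groups overlapped widely, at a log2 fold change of 0.20 (SE 0.11, edgeR adjusted p = 0.20), which was -0.010 with the GC trend removed. Pcdh15, part of the tip link of inner ear hair cells with cadherin 23, was at 1.7, 1.78, 2.01, 2.16 and 2.61 CPM in Visudyne 1 to 5 and 1.24, 1.85, 1.56, 2.8 and 1.54 CPM in vehicle 6 to 10, at a log2 fold change of 0.19 (SE 0.22), or 0.066 with the GC trend removed, and was not called.

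**Figure D1:**
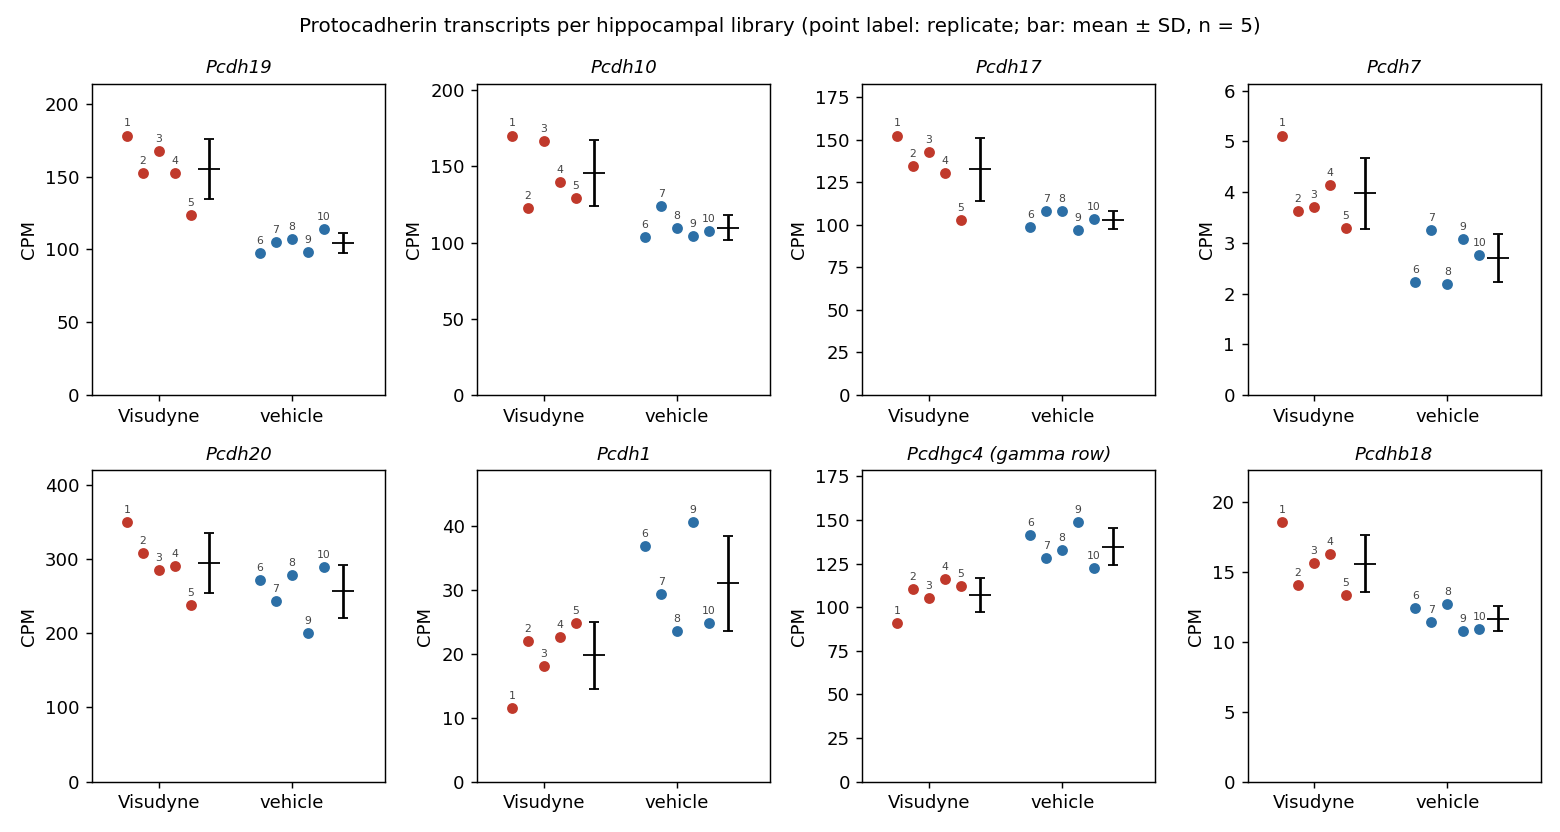
Level in CPM (vertical axes, from 0) of 8 protocadherin rows in each library, with Visudyne left and vehicle right, 1 point per library labelled by its replicate number with black bars for mean and SD (n = 5). Pcdh19, Pcdh7 and Pcdhb18 separate the groups upwards and the gamma row downwards, while Pcdh20 overlaps.

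Per kilobase of exon, the non-clustered genes spanned a wide range of level. Pcdh20 stood at 53.6 ± 7.32 CPM per kb in Visudyne and 46.7 ± 6.49 CPM per kb in vehicle. In each library it lay above every other non-clustered gene with a row. Pcdh19 followed, at 14.8 ± 1.97 CPM per kb in Visudyne and 9.97 ± 0.641 CPM per kb in vehicle. Pcdh17 came next, at 10.2 ± 1.44 CPM per kb in Visudyne and 7.94 ± 0.402 in vehicle. Pcdh10 was at 9.17 ± 1.36 CPM per kb in Visudyne and 6.91 ± 0.515 in vehicle, below Pcdh17 in 4 of 5 Visudyne and 5 of 5 vehicle libraries, though the ranges of both genes overlapped in each group. Pcdh1 was at 2.25 ± 0.596 CPM per kb in Visudyne and 3.53 ± 0.846 in vehicle, and Pcdh11x at 1.86 ± 0.181 CPM per kb in Visudyne and 1.4 ± 0.401 in vehicle, Pcdh1 being above Pcdh11x in 4 of 5 Visudyne and 5 of 5 vehicle libraries. Below 1 CPM per kb in vehicle were Pcdh18 (0.739), Pcdh7 (0.255), Pcdh8 (0.114) and Pcdh15 (0.0756). Exon lengths are the union over all annotated transcripts, so a gene expressed mainly from a short transcript is understated on this scale.

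The 21 beta rows lie between 37264938 and 37518325 on chromosome 18, and in each of them the annotated exons fill the whole span of the gene. Of 20 tested 3 were called higher, 0 lower and 17 were not called, where 8.98% of all tested genes were called higher and 11.5% lower. The median of the 20 log2 fold changes was 0.18, and all 20 had a positive value. That shared sign changed with the scaling and the GC correction. With total counts as library sizes, which moved the median of all genes to -0.19 and called 196 genes higher and 3902 lower in place of 1432 and 1829, 9 of 20 were positive, at a median of -0.032. After GC trend removal 16 of 20 were positive, at a median of 0.069, and under the GC slope covariate 6 of 20.

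Pcdhb18 had the smallest p of the beta genes. It was at 18.6, 14, 15.6, 16.3 and 13.4 CPM in Visudyne 1 to 5, against 12.4, 11.4, 12.7, 10.8 and 10.9 CPM in vehicle 6 to 10, so the groups did not overlap. Its log2 fold change was 0.42 (SE 0.095, edgeR adjusted p = 0.025), and 0.20 with the GC trend removed (adjusted p = 0.13, not called). Pcdhb14, the longest beta gene and at 39.1% GC the poorest in GC, was at 23.1, 18.8, 19.3, 19.3 and 16.4 CPM in Visudyne 1 to 5, against 15.7, 14.5, 15.7, 14.6 and 17.6 CPM in vehicle 6 to 10. Vehicle 10 lay above Visudyne 5 and below the other Visudyne libraries. Its log2 fold change was 0.31 (SE 0.091, edgeR adjusted p = 0.037), and with the GC trend removed 0.036. Pcdhb9 was at 13.9, 12.8, 10.5, 11.2 and 9.91 CPM in Visudyne 1 to 5, against 9.7, 10.01, 9.78, 7.2 and 8.07 CPM in vehicle 6 to 10, at a log2 fold change of 0.38 (SE 0.12, edgeR adjusted p = 0.044). Only Visudyne 5 lay within the vehicle range. At 47.8% GC its value with the GC trend removed was 0.36 (adjusted p = 0.084, not called), but the call held in 1 of the 10 fits that each left out 1 library, the one without Visudyne 5. Pcdhb19 and Pcdhb16 had the highest CPM of the beta genes and were not called, at log2 fold changes of 0.36 (adjusted p = 0.054 by edgeR) and 0.29 (0.067), which were 0.12 and 0.11 with the GC trend removed. Pcdhb19 was at 35.5, 21.8, 26.9, 26.6 and 23.2 CPM in Visudyne 1 to 5 and 18.4, 24.1, 20.6, 20.6 and 21.2 CPM in vehicle 6 to 10, Visudyne 2 and 5 lying within the vehicle range. The other 15 tested beta genes were not called, with log2 fold changes between 0.0037 and 0.33 and adjusted p between 0.081 and 0.99 in edgeR.

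Levels and fold changes varied along the beta array. The 8 genes Pcdhb1 to Pcdhb8 summed to 26.2 to 37 CPM in Visudyne, a range that holds the vehicle range of 29.1 to 32.4 CPM. The 13 genes Pcdhb9 to Pcdhb21 summed to 138 to 195 CPM in Visudyne and 124 to 148 CPM in vehicle. None of the 7 tested genes of the first stretch was called, their log2 fold changes having a median of 0.064 and reaching 0.23. In the second stretch 3 of 13 were called, with a median of 0.26 and a highest value of 0.42. Among all tested genes 8.98% were called higher. By GC content that share was 29.5% below 42%, 18.6% from 42 to 44% and 6.64% from 46 to 48%. The division of the array was made after the values were seen and was not tested. GC content falls along the array, with a Spearman rho of -0.58 with gene order over the 20 tested genes, which share libraries and neighbouring sequence. The log2 fold change had a rho of 0.61 with gene order and of -0.69 with GC content, and with the GC trend removed its rho with GC content was -0.11. Per kilobase, Pcdhb16 was highest, at 4.42 ± 0.663 CPM per kb in Visudyne and 3.61 ± 0.355 in vehicle, with Pcdhb17 next, at 4.04 ± 0.551 CPM per kb in Visudyne and 3.51 ± 0.404 in vehicle, below Pcdhb16 in 5 of 5 Visudyne and 3 of 5 vehicle libraries. Pcdhb1, at the start of the array, had 3 to 9 counts in each library and 0.065 ± 0.0252 CPM per kb in Visudyne and 0.0679 ± 0.0146 in vehicle. Of the other genes Pcdhb8 was lowest, at 0.881 ± 0.217 CPM per kb in Visudyne and 0.846 ± 0.145 in vehicle, below Pcdhb6 in 3 of 5 libraries of each group. The annotated end of Pcdhb21 overlaps the start of Pcdhb22, which is not analysed here, so reads there are uncertain.

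**Figure D2:**
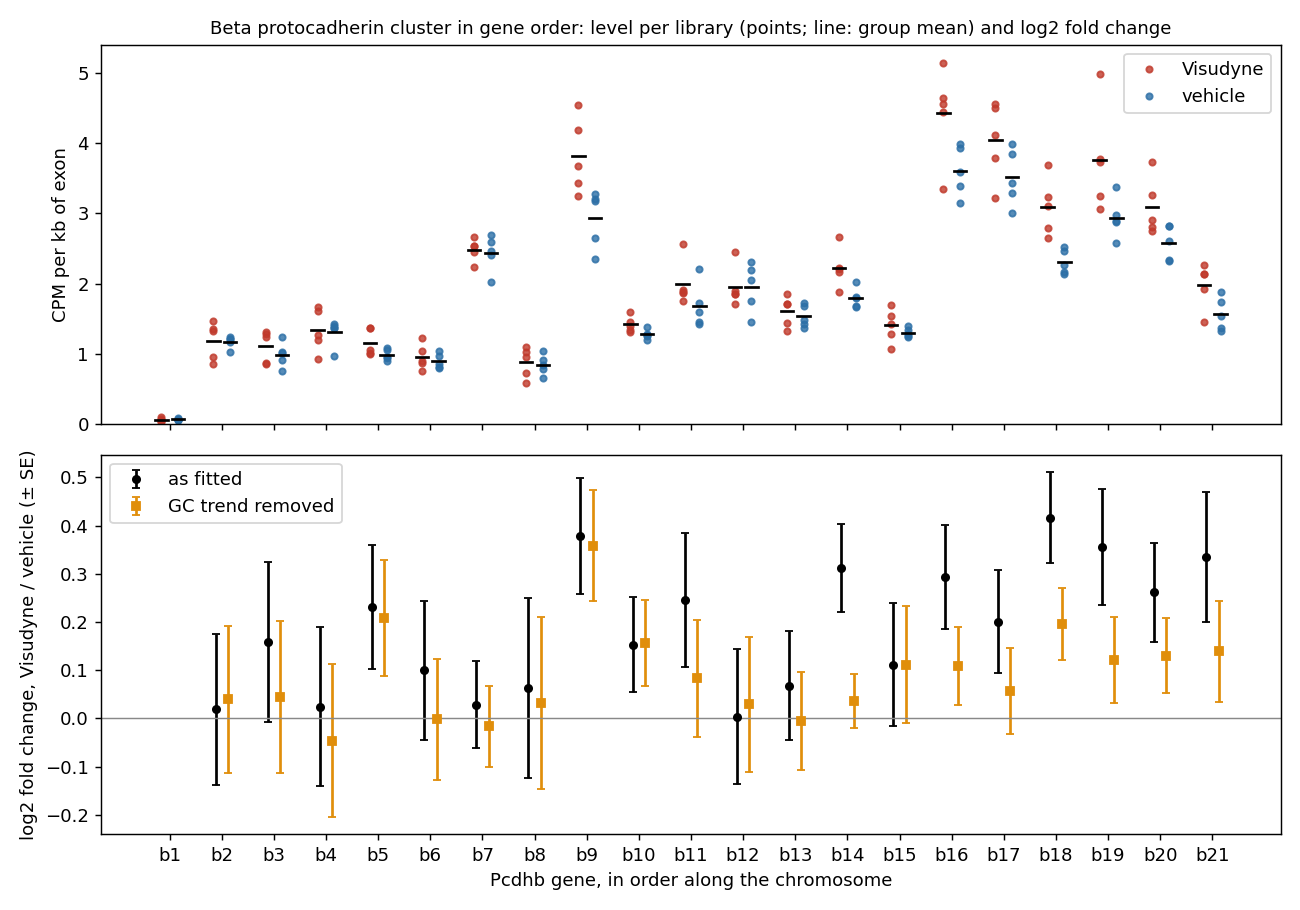
Beta genes in their order along chromosome 18. The top panel gives CPM per kb of exon, 1 point per library with Visudyne left of vehicle and the group mean as a line (n = 5 each), and the bottom panel gives the log2 fold change with its SE as fitted (circles) and with the GC trend removed (squares). Pcdhb14 shrinks to 0.036 with the trend removed, beside 0.31 as fitted, and Pcdhb9 lies at 0.36 beside 0.38.

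The gamma row (ENSMUSG00000023036, chromosome 18, 37815079 to 37841873) fell. It was at 91.1, 110.4, 105, 116 and 112 CPM in Visudyne 1 to 5, against 141, 128, 133, 149 and 123 CPM in vehicle 6 to 10. Every Visudyne library lay below every vehicle library. The means were 107 ± 9.61 CPM in Visudyne and 135 ± 10.4 CPM in vehicle, for a log2 fold change of -0.33 (SE 0.075, edgeR adjusted p = 0.025). It was also called with total counts as library sizes, at -0.54, where the median of all genes was -0.19 and 3902 genes were called lower. After GC trend removal the value was -0.056 (adjusted p = 0.45, not called). GC content of the row was taken from the annotated Pcdhgc4 transcript, 54.3%, and the median log2 fold change of the 3858 tested genes with 50 to 55% GC was -0.17.

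The alpha row (ENSMUSG00000007440, chromosome 18, 37005203 to 37187657) was not called. It was at 67.3, 62.5, 65.8, 68.2 and 63.9 CPM in Visudyne 1 to 5, against 64.2, 63.8, 59.8, 59.7 and 62.7 CPM in vehicle 6 to 10. The groups overlapped, with means of 65.6 ± 2.36 CPM in Visudyne and 62 ± 2.17 CPM in vehicle. The log2 fold change was 0.080 (SE 0.050, edgeR adjusted p = 0.24), and it was 0.034 after GC trend removal and -0.12 with total counts. Of the C-type isoforms of both arrays, which are known to be expressed in most neurons, only the gamma row above carries a C-type name.

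The sums of beta and of non-clustered rows were highest in Visudyne 1. The beta rows summed to 232, 187, 198, 201 and 164 CPM in Visudyne 1 to 5, against 159.7, 181, 170.0, 153 and 165 CPM in vehicle 6 to 10, a log2 ratio of means of 0.25. The 10 non-clustered rows summed to 901, 773, 817, 776 and 656 CPM in Visudyne 1 to 5, against 633, 645, 659, 568 and 661 CPM in vehicle 6 to 10, a log2 ratio of 0.31. In both sums Visudyne 5 was the lowest Visudyne library and lay inside the vehicle range, while the other 4 lay above it. Visudyne 5 also had the lowest sum of the 4 dentate granule markers, 90.5 CPM, beside 123 CPM in Visudyne 3. That marker sum was 154 to 198 CPM in the other Visudyne libraries and 164 to 185 CPM in vehicle. The slope on GC content was lowest in Visudyne 1 (-0.051) and, among the Visudyne libraries, highest in Visudyne 5 (0.0011). Vehicle 9, lowest of the vehicle libraries in both protocadherin sums, had the highest slope (0.039). The part of the markers and of the GC slopes in the protocadherin sums was not tested. With total counts as library sizes the log2 ratios became 0.035 for beta and 0.098 for the non-clustered rows, while the gamma row stood at -0.53.

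**Figure D3:**
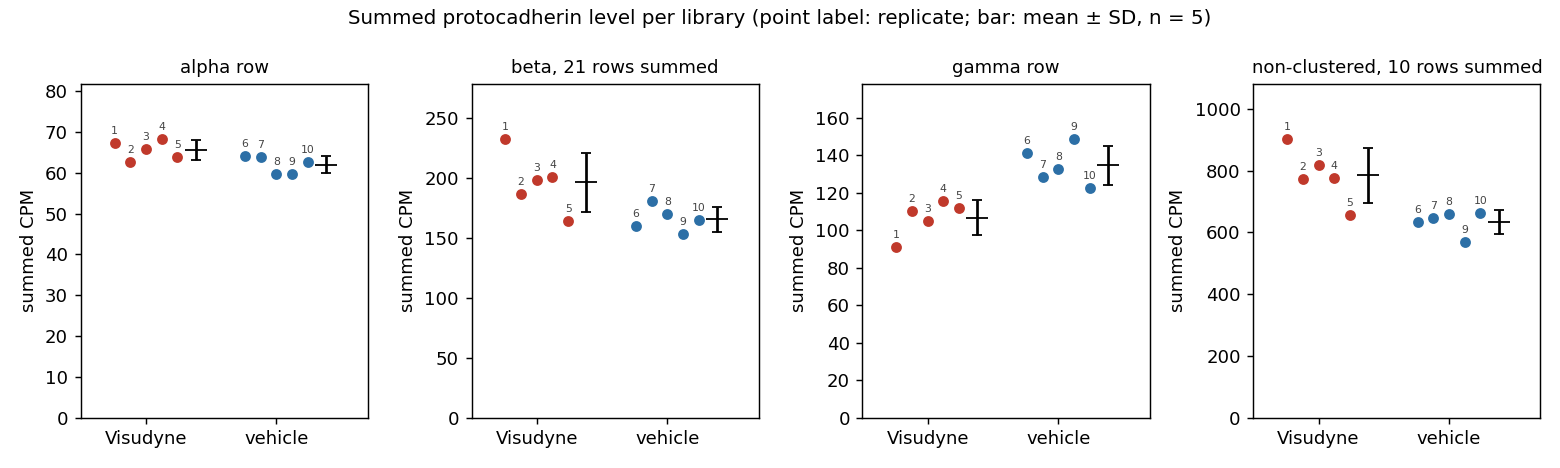
Summed CPM (vertical axes, from 0) of the alpha row, the 21 beta rows, the gamma row and the 10 non-clustered rows in each library, Visudyne left of vehicle, with 1 point per library labelled by its replicate number and black bars for mean and SD (n = 5). The gamma row is lower in all 5 Visudyne libraries, and the non-clustered sum reaches 901 CPM in Visudyne 1 and stays at or below 661 CPM in vehicle.

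Among all 32 tested members the log2 fold change was lower the higher the GC content, with Pearson's r of -0.72 and Spearman's rho of -0.64. This is a description across genes measured in the same libraries. Over all 15829 tested genes with a known GC content rho was -0.67. Once the GC trend was removed the members' r was 0.062 and their rho -0.11. Members in the range of 46 to 48% GC, where the median of 1808 genes was 0.062 and 6.64% were called higher, included Pcdh19 and Pcdhb9 at 0.57 and 0.38, while the other 6 lay between 0.025 and 0.23. Those in the range of 42 to 44%, where the median was 0.19 and 18.6% were called higher, were Pcdh10 at 0.41, Pcdhb21 at 0.33, Pcdhb16 at 0.29 and Pcdhb11 at 0.25. Below 42% GC, where the median was 0.28 and 29.5% were called higher, were Pcdhb18 at 0.42, Pcdh11x at 0.40, Pcdhb19 at 0.36, Pcdhb14 at 0.31 and Pcdh20 at 0.20. Between 44 and 46%, where the median was 0.13 and 10.9% were called higher, Pcdh7 was at 0.56 and Pcdh17 at 0.36, while the other 6 lay between 0.10 and 0.27. The 4 tested members from 48 to 50% GC lay between 0.0037 and 0.15, beside a median of -0.016. For Pcdh1, from 60% GC upwards, the median of 478 genes was -0.54, with 28.7% called lower.

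**Figure D4:**
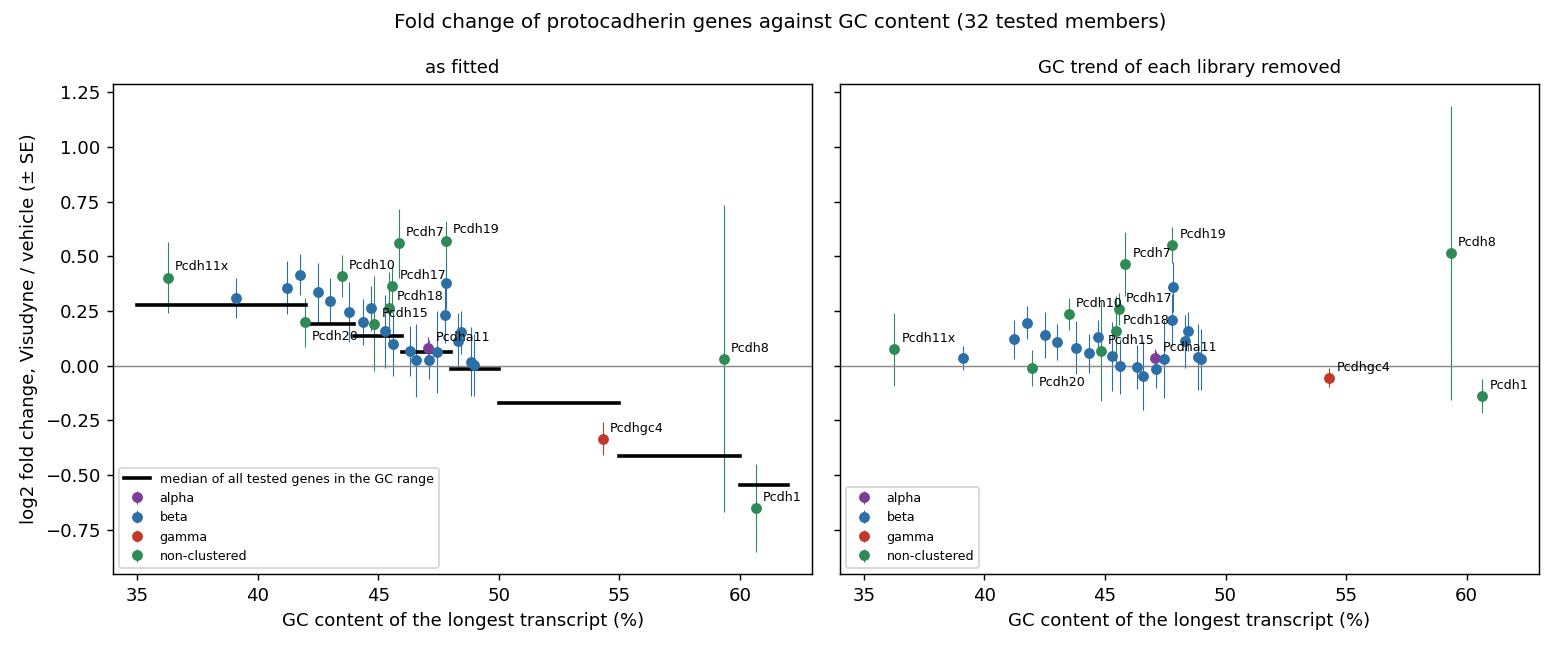
Log2 fold change (Visudyne over vehicle, with its SE) of the 32 tested members against the GC content of their longest transcript, as fitted (left) and with each library's GC trend removed (right). Black lines give the median of all tested genes in each GC range, drawn within the range shown. Pcdh19 lies at 0.57 and 0.55, above the line at its GC content, while Pcdh1 and the gamma row lie at -0.14 and -0.056 in the right panel.

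Genes that regulate or bind protocadherins were read from lists chosen for this comparison. Of 21 chromatin regulators of the arrays 2 were called higher, or 9.52% beside 8.98% of all tested genes, and 1 lower, or 4.76% beside 11.5%, so the higher calls were near the share over all genes. The median log2 fold change was 0.15, beside 0.010 over all genes, and 0.0069 once the GC trend was removed. Pds5b, a cohesin-associated regulator, rose to 189 ± 28.3 CPM in Visudyne, against 151 ± 7.5 CPM in vehicle, and the cohesin loader Nipbl to 97.6 ± 9.74 CPM in Visudyne, against 84.6 ± 2.72 CPM in vehicle. Mau2, the partner of Nipbl in the loader, fell to 23.7 ± 1.69 CPM in Visudyne, against 29.5 ± 2.62 CPM in vehicle. None of the 3 was called once the GC trend was removed. Ctcf itself had a log2 fold change of 0.068 (SE 0.063, edgeR adjusted p = 0.44) and was not called. It was named outside the naming rule, as the main regulator of the arrays.

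Of 21 cytoplasmic partners and signalling genes 3 were called higher, or 14.3% beside 8.98% of all tested genes, and 5 lower, or 23.8% beside 11.5%, at a median log2 fold change of 0.036. The 4 with the smallest p were all lower. Ptk2b, the kinase Pyk2 that alpha and gamma protocadherins inhibit, fell to 242 ± 30.3 CPM in Visudyne, against 316 ± 30.9 CPM in vehicle, a log2 fold change of -0.38 that was -0.11 and not called with the GC trend removed. Brk1, a small subunit of the WAVE complex, fell to 34.6 ± 3.69 CPM in Visudyne, against 44.2 ± 4.63 CPM in vehicle, and was also called with the GC trend removed, at a log2 fold change of -0.28. Ppp1ca, a catalytic subunit of protein phosphatase 1, was at 0.783 and Map1lc3b, an autophagosome protein, at 0.83 of the vehicle level. Neither was called with the trend removed, where the log2 fold change of Ppp1ca was 0.011. The 3 higher ones, outside the naming rule and named after their values were seen, were Wasf1 (WAVE1, at 1.25 times the vehicle level), Marcks (at 1.3 times) and Pdcd10 (at 1.22 times). Of these Wasf1, an actin regulator of the WAVE complex, was also called without the GC trend, at a log2 fold change of 0.41. Of 7 genes of the proteolytic cleavage of protocadherins 1 was called in each direction, or 28.6% in all beside 20.5% of all tested genes. Adam10, the sheddase, rose to 86.7 ± 13.4 CPM in Visudyne, against 64.4 ± 3.86 CPM in vehicle, and Psen2, a catalytic subunit of gamma-secretase, fell to 1.55 ± 0.19 CPM in Visudyne, against 2.14 ± 0.346 CPM in vehicle. Neither was called once the GC trend was removed, at log2 fold changes of 0.22 and -0.14.

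The rest of the cadherin superfamily had 32 tested genes of 37, of which 6 were called higher, or 18.8% beside 8.98% of all tested genes, and 3 lower, or 9.38% beside 11.5%, at a median log2 fold change of -0.065. The lower ones, outside the naming rule and named after their values were seen, were Clstn3, Dchs1 and Cdhr4. Cdh2, N-cadherin of synaptic junctions, rose to 104 ± 5.86 CPM in Visudyne, against 85.8 ± 3.69 CPM in vehicle, a log2 fold change of 0.28 (SE 0.056, edgeR adjusted p = 0.023) that was 0.33 and called with the GC trend removed. Cdh19 was at 1.37, Cdh12 at 1.26 and Cdh10 at 1.2 times the vehicle level. None of the 3 was called with the trend removed, where the log2 fold change of Cdh10 turned to -0.11.

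Many of these calls were lost when 1 library was left out. Of the 9 called members 0 were called without Visudyne 3 or without vehicle 6, and 1, Pcdh19, without vehicle 9. Higher calls numbered 3 without Visudyne 1 or Visudyne 4 and 4 without vehicle 8. Lower calls numbered 1 without Visudyne 1, Visudyne 2, Visudyne 4 or vehicle 7. Leaving out Visudyne 3 left 27 calls over all genes, vehicle 6 left 10 and vehicle 9 left 309, in place of 3261. The unadjusted p of edgeR was still under 0.05 for 5332, 5134 and 5281 genes in that order, beside 6349 with all libraries. All 9 members kept their direction in each of these fits, and all 9 were called without Visudyne 5.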

How the data were processed

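Total RNA of 10 hippocampal libraries was sequenced after a stranded preparation (labels' protocols). The deposited table holds whole numbers per gene. The submitters' processing notes name Salmon, FastQC and mm10, and since Salmon gives estimated counts, the deposited values were taken as estimated counts rounded by the authors. No source used here names the annotation or says whether counting used the strand. Symbols, positions, exon lengths and GC content (longest transcript) came from GENCODE M21 on GRCm38, which named 27053 of 27343 rows. Total counts are given in the report, and at these depths Pcdhb1 and Pcdh8 had at most 39 counts in a library.

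The groups were compared with edgeR 4.0.16 in R 4.3.3 (filterByExpr, TMM, quasi-likelihood, two-sided, no covariates). The SE of a log2 fold change is its size divided by the root of the F statistic. CPM use TMM library sizes. The GC trend was removed per library with a loess fit (span 0.3) through offsets, for the 15829 of 15938 tested genes with known GC content. Alternatives were other library sizes and filters, DESeq2 1.42.0, limma-voom (limma 3.58.1), 1 surrogate variable (sva 3.50.0), removal of the length trend and leaving out each library. Named genes are every non-clustered member, the C-type members with a row, the called members and the 2 most abundant of each array, and up to 4 called genes of each partner list. Members and lists were chosen with earlier results of these data known. The replicate numbers do not pair the mice.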

Additional observations from a re-analysis of the deposited data

Results flagged for a closer look

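In 4 of 70 sets of 5 values 1 library lay far from the other 4 (gap to the nearest value above 0.71 of the whole range), where chance alone gives about 1 in 20. Pcdhb11 was at 11.3 CPM in Visudyne 1, against 7.77 to 8.45 CPM in the other Visudyne libraries and 6.28 to 9.78 CPM in vehicle. Pcdhb12 was at 7.44 CPM in Visudyne 3, against 5.19 to 5.76 CPM in the other Visudyne libraries. Pcdhb4 was at 3.58 CPM in vehicle 10, against 5.07 to 5.29 CPM in the other vehicle libraries. Pcdh8 was at 0 CPM in vehicle 10, against 0.589 to 0.741 CPM in the other vehicle libraries. Its counts come in steps of 13, and its other 4 vehicle values stood for 26 counts each.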

How the results depend on the processing

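No paired analysis was possible because the groups share no replicate number. Summing the alpha or the gamma members to 1 feature was not run, since each array has 1 row. All 9 called members were also called by DESeq2, limma-voom, with RLE or upper-quartile factors, with the length trend removed and with a minimum mean of 1 CPM. Without a filter 7 were, and 2075 genes in all. With the GC trend removed 654 genes were called, 1 member higher and 0 lower. Using the GC slope as covariate edgeR called 0 genes, 0 members higher and 0 lower (1050 genes at an unadjusted p under 0.05), and with 1 surrogate variable 1 gene, 0 members higher and 0 lower (2461 genes at an unadjusted p under 0.05). With total counts 1 member was called higher and 2 lower, genes split into 196 higher and 3902 lower (1432 and 1829 in the report), and the summed log2 folds were -0.12 for alpha, 0.035 for beta, -0.53 for gamma and 0.098 for the non-clustered rows. Leaving out 1 library gave 10 to 5047 genes called, 0 to 10 members higher and 0 to 2 lower. In these fits 5112 to 7066 genes had an unadjusted p under 0.05 by edgeR. Summed log2 folds were then 0.065 to 0.096 for alpha and 0.18 to 0.30 for beta. They were -0.37 to -0.28 for gamma and 0.25 to 0.37 for the non-clustered rows.

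Of the 32 tested members 15 turned sign with total counts (11 of them beta genes), 5 with the GC trend removed (4 beta), 16 under the GC slope covariate (14 beta), 9 with 1 surrogate variable (8 beta), 3 by limma-voom (2 beta), 1 with upper-quartile factors, and 0 by DESeq2, with RLE factors or with the length trend removed, and the cause was not tested. For the genes that the naming rule gives and those with an outlying library, the turned values were as follows. With total counts Pcdh15 was at -0.0054, Pcdh8 at -0.16, Pcdh20 at -0.013, Pcdha11 at -0.12, Nipbl at -0.0031, Pcdhb4 at -0.19 and Pcdhb12 at -0.20. With the GC trend removed Pcdh20 was at -0.010, Ppp1ca at 0.011, Cdh10 at -0.11 and Pcdhb4 at -0.046. Under the GC slope covariate Pcdh1 was at 0.15, Pcdh20 at -0.16, Pcdhb19 at -0.023, Pcdhb16 at -0.031, Pcdhb4 at -0.11, Pcdhb11 at -0.037 and Pcdhb12 at -0.26. With 1 surrogate variable Pcdh20 was at -0.038, Pcdhb4 at -0.12 and Pcdhb12 at -0.15. By limma-voom Pcdh8 was at -0.31 and Pcdhb4 at -0.020. Pcdhb12 was at -0.0019 with upper-quartile factors and -0.0040 without a filter. Among fits without 1 library, Pcdh8 lay between -0.44 and 0.34, Pcdhb4 between -0.071 and 0.12 and Pcdhb12 between -0.094 and 0.073. The depth limits Pcdhb1 and Pcdh8.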

Other observations

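Non-coding RNAs of the arrays, chosen after the rows of the table were seen, are annotated on the strand opposite to the coding genes of the arrays. Gm10545 (ENSMUSG00000073594, GRCm38 chromosome 18, 37008868 to 37020679), annotated as antisense within the alpha array, was at 4.58, 4.2, 3.29, 4.64 and 4.07 CPM in Visudyne 1 to 5, against 2.25, 2.54, 2.26, 3.77 and 2.95 CPM in vehicle 6 to 10. The groups overlapped only because vehicle 9 lay above Visudyne 3. Its log2 fold change was 0.60 (SE 0.16, edgeR adjusted p = 0.031), and 0.50 with the GC trend removed (adjusted p = 0.086, not called). No source used here says whether counting used the strand, so reads of the alpha row and of Gm10545 may not be told apart. Gm10544, further along the alpha array, averaged 1.11 ± 0.194 CPM in Visudyne against 1.07 ± 0.543 CPM in vehicle, and Gm26672, in the gamma array, 3.41 ± 0.632 CPM in Visudyne against 2.78 ± 0.639 CPM in vehicle (SD, n = 5 each). Neither was called, at log2 fold changes of 0.069 and 0.29, which were -0.12 and 0.34 with the GC trend removed. Taf7, the coding gene between the beta and gamma arrays, averaged 13 ± 0.671 CPM in Visudyne against 12.8 ± 1.34 CPM in vehicle. Its log2 fold change was 0.029 (SE 0.082, edgeR adjusted p = 0.82), and -0.23 with the GC trend removed (edgeR adjusted p = 0.091, not called).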
